A study of Homo sapiens with 15 samples.

Results

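The change in gene expression after 12 h without serum was measured by RNA sequencing in 293T cells. This line was derived from human embryonic kidney and expresses the large T antigen of SV40. The comparison was set by the sample labels and covered every gene: 3 libraries of cells starved of serum for 12 h were compared with 3 libraries of fed cells (0 h of starvation). These 6 libraries come from a table of 9, in a series of 15 samples. The other 3 libraries of the table, from starved cells with SRSF1 knockdown, entered the fit to estimate the spread between libraries and counted in the level filter described next. Both groups are labelled as 1 wild-type line, maintained in DMEM that contained 10% fetal bovine serum and antibiotics at 5% CO2, so that the labels separate them by serum starvation alone. Nothing in the labels says whether replicates were separate cultures, and p-values therefore measure the spread between these libraries, which may be technical. Of 19966 genes, 11133 reached 1 FPKM (reads per kilobase of gene scaled to library depth, computed from the deposited values) in at least 3 of the 9 libraries and were tested, and 8833 were left out. Of the tested genes, 218 reached that filter only with the knockdown libraries counted, and 86 of these were called (13 higher and 73 lower); CYP26A1, EGR1, ETV5, FOS, GLI1, IRS1 and SLC40A1, described below, are among the 218. Values below are normalized counts, the deposited reads per gene divided by 1 factor per library. Fold changes are starved minus fed on the scale log2(normalized count + 1), which understates the change of scarce genes, and are given with the standard error of the fit.

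Serum brings cells growth factors, lipoproteins that carry cholesterol and fatty acids, hormones and vitamins, and iron bound to transferrin. Growth factors act through receptor tyrosine kinases on the ERK and PI3K pathways, which drive immediate early genes and entry into the cell cycle. When cholesterol in the membrane of the endoplasmic reticulum (ER) is low, the factor SREBP-2 is carried to the Golgi apparatus, cut free and turns on the genes of cholesterol synthesis and uptake. Load on protein folding in the ER is read by the sensors IRE1, PERK and ATF6, and PERK shares with the amino acid sensor GCN2 an output through the factor ATF4.

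Reads in genes numbered 11911482 to 15205301 per library, and the groups separated on the first principal component (78.0% of the variance). Starved replicate 2 stood apart from the other 2 starved libraries on the second component (11.8%), at 22.1. Fed replicate 3, at 9.99, lay on the same side, and the remaining libraries of both groups lay on the opposite side. What this component reflects was not tested. Without starved replicate 2, 4660 genes were called, against 4795 with all libraries. Mitochondrially encoded genes took 3.95 ± 0.52% of normalized counts in starved cells and 3.61 ± 0.33% in fed cells (SD, n = 3 each), and the difference did not pass an exact two-sided permutation test (p = 0.5, the smallest possible being 0.1). The labels call the cells renal epithelial: 8 of 15 kidney and epithelial markers reached 1 FPKM in any library, while CDH16 and UMOD were at 0 in every library and PAX8 and KRT19 at 0 or close to it. The summed level of these kidney markers was 36.7 to 43.5 FPKM in starved libraries, against 48.4 to 54.3 FPKM in fed libraries, with 4 members lower and 0 higher. Neuronal markers summed to 59.5 to 63.0 FPKM in starved libraries, against 75.3 to 77.9 FPKM in fed libraries, with 2 members higher and 3 lower. Fibroblast markers summed to at most 3.29 FPKM in starved and 5.98 FPKM in fed libraries, with COL1A2 and FAP at 0. The part of these markers in the other results was not tested, and in such bulk samples fewer cells of a type and less RNA per cell cannot be told apart.

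In all, 4795 genes (43.1% of those tested) passed the limma test at an adjusted p under 0.05, with 2396 higher (21.5%) and 2399 lower (21.5%) in starved cells. Counts of list members below are to be read beside these shares. For 59.3% of tested genes all starved libraries lay on one side of all fed libraries, so such separation is common in this comparison. Rises were on the whole smaller than falls: among changes of 2-fold or more there were 282 rises and 660 falls, and beyond 4-fold 25 rises and 72 falls, while the median log2 fold change over all tested genes was 0.03. Direction went with level. When tested genes were cut into 4 equal bins by mean count, 11.9% of the lowest bin were higher in starved cells and 34.7% lower, and the median log2 fold change was -0.25. In the highest bin 28.0% were higher and 9.59% lower, and the median was 0.13. The balance of directions also depended on the scale. With values rescaled to TPM, which sum to the same total in every library, 1402 genes were higher and 2731 lower (33.9% of calls higher). With a filter of 5 FPKM 1825 were higher and 1290 lower (58.6% higher). Gene length showed a smaller gradient, with 17.3% of the shortest and 23.1% of the longest of 4 equal bins higher in starved cells.

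**Figure D1:**
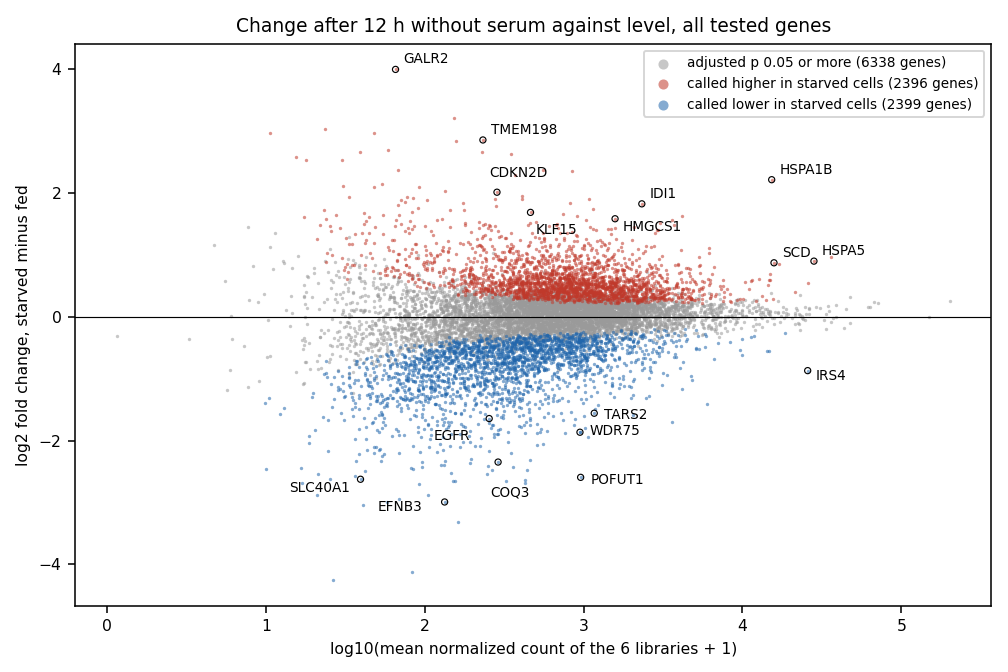
Each point is 1 of the 11133 tested genes, with the mean normalized count of the 6 libraries on a log10 axis and the fitted log2 fold change (starved minus fed) on the vertical axis; red, called higher in starved cells; blue, called lower; grey, not called. EFNB3 and SLC40A1 are large falls at low counts, SCD and HSPA5 are abundant genes that rose, and IRS4 is an abundant gene that fell.

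Genes of cholesterol synthesis and uptake were higher in starved cells along almost the whole route. Of the sterol list, 22 of the 39 tested members were higher in starved cells and 3 lower, with a median log2 fold change of 0.70, and the count higher was 22 to 24 when each of the 6 libraries was left out in turn. Among the mevalonate steps, from acetyl-CoA to farnesyl groups and squalene, 8 of 9 were higher and 0 lower. IDI1 (GRCh38 chromosome 10, 1039152 to 1049119), the isomerase that makes dimethylallyl diphosphate, had 3814, 3234 and 3835 normalized counts in starved cells, against 1030.4, 999 and 1033 in fed cells (log2 fold change 1.82 ± 0.09, limma adjusted p = 3.86e-07). HMGCS1, which makes HMG-CoA, had 2462, 2141 and 2493 normalized counts in starved cells, against 799.8, 784 and 778 in fed cells (log2 fold change 1.58 ± 0.09, limma adjusted p = 6.85e-07). All starved libraries lay far above all fed libraries for both enzymes. The phosphomevalonate kinase gene PMVK, at -0.38 ± 0.23 on the log2 scale, was the mevalonate gene that did not pass (limma adjusted p = 0.207).

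From squalene to cholesterol 8 of 11 were higher and 0 lower. SQLE, the squalene epoxidase, rose by 1.40 ± 0.08, NSDHL by 1.42 ± 0.12 and the last reductase of the route, DHCR7, by 1.35 ± 0.14 on the log2 scale (limma adjusted p 9.84e-07, 7.38e-06 and 2.26e-05). Among uptake and transport genes 4 of 7 were higher and 0 lower. STARD4, which carries cholesterol between membranes, rose by 1.35 ± 0.18 on the log2 scale (limma adjusted p = 0.000166). INSIG1, which holds SREBP in the ER and is itself an SREBP target, rose with them, at 5433, 5479.9 and 5372 normalized counts in starved cells, against 1940.1, 1984 and 1890.1 in fed cells (log2 fold change 1.49 ± 0.08, limma adjusted p = 4.34e-07). The SREBP genes gave unlike values. SREBF2, which encodes the sterol factor SREBP-2, had 3362, 3955 and 3654 normalized counts in starved cells, against 2177, 2378 and 2329.9 in fed cells (log2 fold change 0.67 ± 0.09, limma adjusted p = 0.000215). SREBF1, which encodes SREBP-1, had 901, 967 and 852 normalized counts in starved cells, against 792, 889 and 848 in fed cells and did not pass (log2 fold change 0.11 ± 0.10, limma adjusted p = 0.415). The difference between these 2 changes was not tested. MBTPS2, the site-2 protease that releases SREBP, fell by 1.06 on the log2 scale (limma adjusted p = 3.12e-05). On the efflux side, which LXR turns on when sterols are high, the transporter gene ABCG1 stood at -1.21 ± 0.20 and the LXR-alpha gene NR1H3 at -0.94 ± 0.18 (limma adjusted p 0.000726 and 0.00166). They were 2 of 4 tested genes of the efflux and LXR group, and the other 2 were not called, at 0.01 and 0.22. With a filter of 5 FPKM 0 of the group were lower and 1 higher, and 1 was higher without starved replicate 2. ABCA1, the main cholesterol exporter, was below the level filter, with 60.1, 45.2 and 60.4 normalized counts in starved cells, against 131, 100.04 and 89.5 in fed cells, and was not tested. PMVK, STARD4, MBTPS2, ABCG1 and NR1H3 were picked for mention after their values were seen.

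The promoter of SREBF2 is shown because it was the only one among 31 sterol genes with a RefSeq promoter sequence (GRCh38.p14, 250 bases before to 50 after the start) that held the sterol regulatory element TCACNCCAC on either strand; 1.15% of all 27305 promoters of this length held it. The capitals mark the match, which begins 133 bases before the start (plus strand, chr22:41832855-41833154).
SREBF2: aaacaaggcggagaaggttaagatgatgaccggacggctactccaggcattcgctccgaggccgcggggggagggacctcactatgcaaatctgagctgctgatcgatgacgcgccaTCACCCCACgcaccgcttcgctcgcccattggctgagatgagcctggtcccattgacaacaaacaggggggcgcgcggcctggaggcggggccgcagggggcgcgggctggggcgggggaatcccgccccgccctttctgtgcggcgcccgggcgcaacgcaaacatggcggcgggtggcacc

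**Figure D2:**
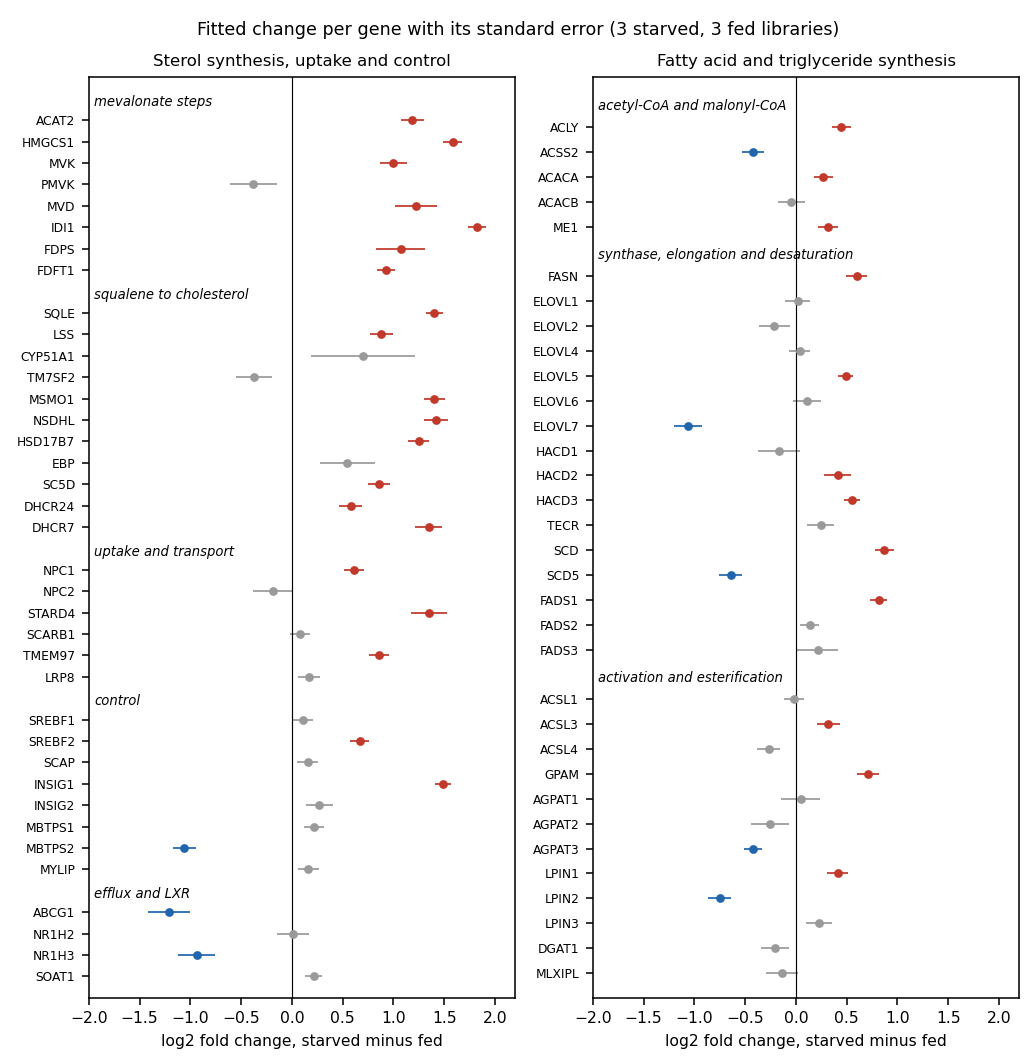
Fitted log2 fold change (starved minus fed, horizontal axis) with its standard error for tested genes of sterol (left) and fatty acid (right) metabolism, in the order of the route; red, called higher; blue, called lower; grey, not called. Mevalonate genes lie mostly between 0.93 and 1.82, above most fatty acid genes, of which SCD has the largest rise at 0.87.

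Fatty acid genes moved less evenly than sterol genes. Of that list, 12 of the 33 tested members were higher in starved cells and 5 lower (median 0.11), and on the TPM scale 7 were higher. SCD, the desaturase that makes oleate from stearate, had 19282, 21858 and 20180.1 normalized counts in starved cells, against 10961, 11357 and 11155 in fed cells (log2 fold change 0.87 ± 0.09, limma adjusted p = 3.27e-05). FASN, the fatty acid synthase, had 16416, 19744 and 18047 normalized counts in starved cells, against 10800.1, 12754 and 12248 in fed cells (log2 fold change 0.60 ± 0.10, limma adjusted p = 0.000927). Both were among the abundant messages of these cells: SCD stood at 277 ± 9.06 FPKM in starved cells and 161 ± 3.86 FPKM in fed cells, and FASN at 138 ± 8.69 FPKM in starved cells and 97.0 ± 7.81 FPKM in fed cells (SD, n = 3 each). ACLY, which supplies cytosolic acetyl-CoA, rose by 0.45 ± 0.09, the desaturase gene FADS1 by 0.81 ± 0.08 and GPAM, which starts glycerolipid synthesis, by 0.71 ± 0.11 on the log2 scale (limma adjusted p 0.00208, 2.94e-05 and 0.000332). Other members went down. The second desaturase gene SCD5 had 335, 436 and 381 normalized counts in starved cells, against 567, 601 and 624 in fed cells (log2 fold change -0.64 ± 0.11, limma adjusted p = 0.000763). The elongase gene ELOVL7 had 141, 113 and 156 normalized counts in starved cells, against 296, 279.9 and 277 in fed cells (log2 fold change -1.06 ± 0.13, limma adjusted p = 0.000108). Among the phosphatidate phosphatases LPIN2 fell by 0.75 while LPIN1 rose by 0.41 on the log2 scale (limma adjusted p 0.000305 and 0.00815), and LPIN1 did not pass on the TPM scale (limma adjusted p = 0.107). Each of SCD, FASN, SCD5 and ELOVL7 had starved and fed libraries that did not overlap.

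Fatty acid oxidation genes showed no common direction, with 5 of 28 members higher (17.9%) and 6 lower (21.4%, median -0.11). These shares lay near the 21.5% of all tested genes called in each direction. CPT1A, which admits long-chain fatty acids to mitochondria, had 678, 731 and 615 normalized counts in starved cells, against 902, 979 and 915 in fed cells (log2 fold change -0.47 ± 0.10, limma adjusted p = 0.00398). The peroxisomal enzyme gene EHHADH fell by 1.16 on the log2 scale (limma adjusted p = 0.000244). ETFDH, which passes electrons from acyl-CoA dehydrogenases to ubiquinone, rose by 0.68 ± 0.11 (limma adjusted p = 0.000723). PDK4, a widely used marker of fasting in muscle and liver, had 80.1, 62.8 and 73.2 normalized counts in starved cells, against 81.1, 64.5 and 74.5 in fed cells, which overlapped (log2 fold change -0.03 ± 0.19, limma adjusted p = 0.928). The count lower was 4 to 9 when 1 library was left out, with 9 without starved replicate 2.

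The largest share of members called higher in any list was found among ER stress and folding genes. The 3 promoters printed here are from members whose change is described next, and were picked because each holds the ER stress response element, CCAAT and CCACG separated by 9 bases of any kind, on either strand. In the 42 list members with a RefSeq promoter sequence, 7 (16.7%) held this element, against 22 of all 27305 promoters (0.0806%) and 14 of 9053 promoters of tested genes (0.155%). The element was first described in genes of this kind, so the share is a description and no independent result. Capitals mark the matches, which begin 66 bases before the start in HSPA5 (chr9:125241294-125241593, minus strand), 194 and 89 bases before it in HSP90B1 (chr12:103930160-103930459, plus strand) and 52 bases before it in XBP1 (chr22:28800520-28800819, minus strand), all from RefSeq on GRCh38.p14.
HSPA5: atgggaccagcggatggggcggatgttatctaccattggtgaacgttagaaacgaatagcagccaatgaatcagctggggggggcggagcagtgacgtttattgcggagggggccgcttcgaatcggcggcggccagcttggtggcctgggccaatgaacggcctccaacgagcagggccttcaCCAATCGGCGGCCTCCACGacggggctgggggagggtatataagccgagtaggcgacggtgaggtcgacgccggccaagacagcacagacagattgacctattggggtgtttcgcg
HSP90B1: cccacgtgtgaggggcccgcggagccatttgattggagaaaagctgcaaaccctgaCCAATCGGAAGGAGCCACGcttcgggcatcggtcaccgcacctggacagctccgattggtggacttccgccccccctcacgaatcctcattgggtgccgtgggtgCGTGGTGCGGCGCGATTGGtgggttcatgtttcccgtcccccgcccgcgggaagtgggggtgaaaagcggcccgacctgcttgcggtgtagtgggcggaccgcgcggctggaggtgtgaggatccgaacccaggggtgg
XBP1: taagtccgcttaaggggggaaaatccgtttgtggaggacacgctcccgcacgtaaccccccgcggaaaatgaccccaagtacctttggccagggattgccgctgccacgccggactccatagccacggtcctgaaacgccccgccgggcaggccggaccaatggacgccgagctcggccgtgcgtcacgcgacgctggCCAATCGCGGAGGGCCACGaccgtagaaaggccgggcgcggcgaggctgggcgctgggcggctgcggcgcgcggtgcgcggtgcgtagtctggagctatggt

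Of the ER stress and folding list, 34 of the 46 tested members were higher in starved cells and 3 lower, with a median of 0.60 and 31 to 33 higher when 1 library was left out. HSPA5 (GRCh38 chromosome 9, 125234853 to 125241382), the ER chaperone BiP, had 34439.8, 38635 and 37077 normalized counts in starved cells, against 19223, 19842 and 19969 in fed cells (log2 fold change 0.90 ± 0.09, limma adjusted p = 2.08e-05). It was among the most abundant messages of the list, at 399.6 ± 14.1 FPKM in starved cells and 228 ± 3.32 FPKM in fed cells (SD, n = 3 each). HSP90B1, the ER member of the HSP90 family, had 19848, 15229 and 18418 normalized counts in starved cells, against 12403, 11476 and 11383 in fed cells (log2 fold change 0.59 ± 0.13, limma adjusted p = 0.00397), with starved replicate 2 the lowest of the starved libraries, and did not pass under quantile scaling (limma adjusted p = 0.0531). XBP1, whose mRNA is spliced by IRE1 into an active factor, had 5411, 6065 and 5222 normalized counts in starved cells, against 3162, 3149 and 3362 in fed cells (log2 fold change 0.79 ± 0.09, limma adjusted p = 5.25e-05); the spliced form cannot be seen in counts per gene. Among the sensors and factors of ER stress 5 of 8 were higher and 1 lower, with 3 higher under a filter of 5 FPKM. The one lower was the sensor gene ATF6, picked for mention after its value was seen, with 718, 752 and 767 normalized counts in starved cells, against 1030.4, 1071 and 1047 in fed cells and no overlap between groups (log2 fold change -0.49 ± 0.13, limma adjusted p = 0.0109). Among chaperones 10 of 13 were higher and 1 lower (0 lower without starved replicate 2, fed replicate 1 or fed replicate 2), among disulfide enzymes 6 of 10 were higher and 0 lower, and among genes of ER-associated decay 13 of 15 were higher and 1 lower. HERPUD1, a scaffold of the decay machinery, had 4204, 4926 and 4386 normalized counts in starved cells, against 1573, 1472 and 1656 in fed cells (log2 fold change 1.52 ± 0.09, limma adjusted p = 9.94e-07). The decay component SELENOS rose by 1.26 ± 0.11, and the secreted ER factors MANF and CRELD2 by 1.40 ± 0.15 and 1.19 ± 0.13 on the log2 scale (limma adjusted p 9.82e-06, 3.12e-05 and 4.18e-05). DDIT3, which encodes the PERK-side factor CHOP, was scarce, with 179, 179 and 114 normalized counts in starved cells, against 49.5, 63.5 and 62.9 in fed cells (log2 fold change 1.39 ± 0.27, limma adjusted p = 0.00190). Starved replicate 3 was the lowest of its group for DDIT3 and still above every fed library.

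Genes for entry into the ER and transport to the Golgi apparatus were higher together with the chaperones. Of this list 39 of the 71 tested members were higher in starved cells and 3 lower (median 0.34), 29 to 36 when 1 library was left out and 26 on the TPM scale. The translocon and signal peptidase group had 14 of 23 members higher and 1 lower, with 8 higher on the TPM scale, and the coat and cargo receptor group 18 of 30 members higher and 2 lower. SEC61A1, the pore through which new proteins enter the ER, had 7539.6, 9519.5 and 8165 normalized counts in starved cells, against 4515, 4863 and 4943 in fed cells (log2 fold change 0.81 ± 0.10, limma adjusted p = 0.000114). SEC24D, a cargo adaptor of the COPII coat, had 2104, 2075 and 2225 normalized counts in starved cells, against 776, 873 and 887 in fed cells (log2 fold change 1.34 ± 0.10, limma adjusted p = 4.57e-06). Neither gene had any overlap between groups. SRP19, of the signal recognition particle, rose by 1.38 ± 0.14, the translocon-associated SSR3 by 0.97 ± 0.08 and the Golgi SNARE gene GOSR2 by 0.91 ± 0.08 on the log2 scale (limma adjusted p 3.04e-05, 6.78e-06 and 1.31e-05). N-glycosylation genes had 7 of 18 members higher and 0 lower. ALG1, the first mannosyltransferase of the lipid-linked glycan, had 676, 794 and 746 normalized counts in starved cells, against 335, 370.3 and 416 in fed cells (log2 fold change 0.98 ± 0.14, limma adjusted p = 0.000253). That group's count higher was 4 without fed replicate 2.

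Within the ATF4 list, amino acid transporters held the largest share of members higher in starved cells. Of the whole list, 22 of the 38 tested members were higher in starved cells and 3 lower (median 0.42). ATF4 itself, whose protein is mainly set by translation, had 12069, 14844 and 12202 normalized counts in starved cells, against 12684, 12272 and 14066 in fed cells and did not pass (log2 fold change -0.00 ± 0.11, limma adjusted p = 0.996). Transporters had 9 of 11 members higher and 1 lower. The one called lower, the neutral amino acid carrier gene SLC43A1, stood at -0.30 ± 0.10 (limma adjusted p = 0.0305), a call lost without starved replicate 1 or without any 1 fed replicate (limma adjusted p 0.0538 to 0.114); it was picked for mention after its value was seen. SLC1A4, a carrier of alanine, serine and cysteine, had 882, 1083 and 1029.9 normalized counts in starved cells, against 328, 357 and 365 in fed cells (log2 fold change 1.51 ± 0.12, limma adjusted p = 4.81e-06). SLC7A11, the cystine importer, had 3716, 2289 and 3193 normalized counts in starved cells, against 1162, 1167 and 973 in fed cells (log2 fold change 1.45 ± 0.16, limma adjusted p = 4.31e-05). For both transporters the lowest starved library was above the highest fed library by a wide margin. The glycine transporter gene SLC6A9 rose by 1.16 ± 0.18, and CTH, which makes cysteine from cystathionine, by 1.31 ± 0.09 on the log2 scale (limma adjusted p 0.000494 and 1.58e-06). In amino acid synthesis 9 of 16 were higher and 1 lower. PSAT1, of the serine pathway, rose by 0.36 ± 0.09 (limma adjusted p = 0.00675). ASNS, a textbook ATF4 target, had 176, 139.9 and 130.2 normalized counts in starved cells, against 133, 105 and 113 in fed cells and did not pass (log2 fold change 0.34 ± 0.17, limma adjusted p = 0.125). TRIB3, which feeds back on ATF4, rose by 0.63 ± 0.14 and the secreted factor gene STC2 by 1.03 ± 0.08 (limma adjusted p 0.00359 and 5.78e-06). The count lower in the list was 0 without fed replicate 3, 1 without fed replicate 2, starved replicate 1 or starved replicate 3, and 4 without starved replicate 2.

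Aminoacyl-tRNA synthetases, many of which are ATF4 targets, went both ways. Of the 35 tested, 11 were higher and 9 lower (median 0.17), and on the TPM scale or under quantile scaling 5 were higher. Among cytosolic enzymes 7 of 20 were higher and 4 lower, and among mitochondrial enzymes 4 of 15 were higher and 5 lower. The cytosolic count higher was 4 without starved replicate 1, 3 without fed replicate 3, 2 without starved replicate 3 or fed replicate 1, 1 without fed replicate 2, and 2 on the TPM scale or under quantile scaling. The mitochondrial count higher was 2 without fed replicate 3. AARS1, the cytosolic alanine enzyme, had 2962, 3427 and 3319 normalized counts in starved cells, against 5999, 6320.0 and 6476 in fed cells (log2 fold change -0.96 ± 0.09, limma adjusted p = 1.25e-05). TARS2, the mitochondrial threonine enzyme, had 551, 662 and 561 normalized counts in starved cells, against 1736, 1678 and 1805 in fed cells (log2 fold change -1.56 ± 0.11, limma adjusted p = 2.29e-06). MARS1 and VARS1, the cytosolic methionine and valine enzymes, fell by 0.65 and 0.66 on the log2 scale (limma adjusted p 0.000321 and 0.000796). TARS1, the cytosolic threonine enzyme, was among those higher, with 7377, 6905 and 7809 normalized counts in starved cells, against 4983, 4703 and 4724 in fed cells (log2 fold change 0.61 ± 0.11, limma adjusted p = 0.00107); it was picked for mention after its value was seen. Also higher, the mitochondrial glutamate enzyme gene EARS2 had 1624, 1937 and 1754 normalized counts in starved cells, against 854, 874 and 936 in fed cells (log2 fold change 0.99 ± 0.09, limma adjusted p = 1.56e-05). MARS2, the mitochondrial methionine enzyme, had 929, 1044 and 1185 normalized counts in starved cells, against 562, 569 and 547 in fed cells (log2 fold change 0.90 ± 0.13, limma adjusted p = 0.000221). Leaving out 1 library left 7 to 11 lower, while the count higher dropped to 4 without fed replicate 2, 5 without fed replicate 1, fed replicate 3 or starved replicate 3, and 7 without starved replicate 1.

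**Figure D3:**
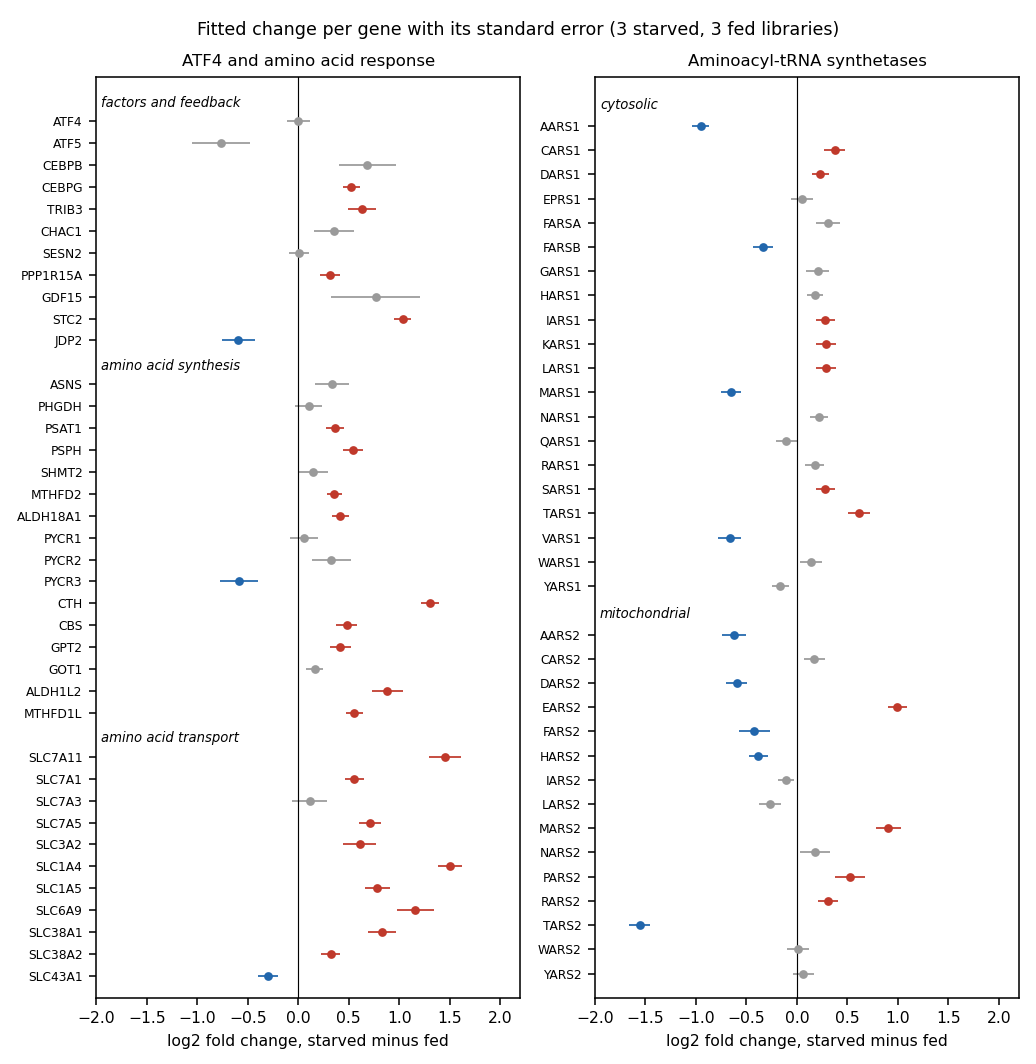
Fitted log2 fold change (starved minus fed, horizontal axis) with its standard error for every tested gene of the ATF4 and amino acid list (left) and every tested aminoacyl-tRNA synthetase (right); red, called higher; blue, called lower; grey, not called. Most transporters lie to the right of 0 and SLC43A1 is the one called lower, ATF4 lies at 0, and the synthetases spread from TARS2 at -1.56 to EARS2 at 0.99.

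Cytosolic chaperones rose for some families. Of the heat shock list 20 of the 44 tested members were higher in starved cells and 4 lower (median 0.28), and on the TPM scale 12 were higher. DNAJB1, the HSP40 partner of inducible HSP70, had 5611, 6939.9 and 6271 normalized counts in starved cells, against 1886, 2012 and 2149.9 in fed cells (log2 fold change 1.63 ± 0.11, limma adjusted p = 2.27e-06). HSPA1A and HSPA1B, inducible HSP70 genes in near-identical copies whose reads cannot be assigned with certainty, rose by 2.36 ± 0.14 and 2.21 ± 0.10 on the log2 scale (limma adjusted p 9.83e-07 and 3.28e-07). The HSP70 nucleotide exchange factors BAG3 and BAG1 rose by 1.03 ± 0.10 and 0.99 ± 0.14 (limma adjusted p 1.64e-05 and 0.000220). HSPB8, the small heat shock protein that works with BAG3, went the other way, with 68.1, 100.3 and 54.6 normalized counts in starved cells, against 145, 138 and 182 in fed cells (log2 fold change -1.08 ± 0.20, limma adjusted p = 0.00139). The list's count lower was 2 without fed replicate 2.

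Receptors and adaptors for growth factors were lower more often than higher. Of the growth factor receptor list 3 of the 30 tested members were higher in starved cells (10.0%) and 9 lower (30.0%, median -0.14). In the lowest of the 4 bins of all tested genes by count, 11.9% were higher and 34.7% lower. FGF receptors had 1 of 5 higher and 2 lower, insulin and IGF receptors 1 of 3 higher and 0 lower. TGF-beta and BMP receptors had 1 of 10 higher and 0 lower, and the largest log2 fold change among them was 0.91. Leaving out 1 library left 8 to 9 of the list lower. The count lower was 5 with a filter of 5 FPKM and 15 with no filter. EGFR (GRCh38 chromosome 7, 55019017 to 55211628), the EGF receptor, had 139, 109 and 119 normalized counts in starved cells, against 409.8, 404 and 339 in fed cells (log2 fold change -1.65 ± 0.18, limma adjusted p = 3.64e-05). FGFR1 had 533, 703 and 503 normalized counts in starved cells, against 1183, 1319 and 1283 in fed cells (log2 fold change -1.13 ± 0.12, limma adjusted p = 3.67e-05). FGFR3 had 579, 711 and 695 normalized counts in starved cells, against 1169, 1269.8 and 1098 in fed cells (log2 fold change -0.84 ± 0.14, limma adjusted p = 0.000610). All starved libraries lay below all fed libraries for these 3 receptors. The insulin and IGF-1 receptor genes INSR and IGF1R did not pass, at -0.22 ± 0.10 and 0.04 ± 0.10 (limma adjusted p 0.102 and 0.785), while 2 of the 3 genes for the substrates they phosphorylate did. IRS4 was the insulin receptor substrate gene of highest level, at 78.2 ± 11.7 FPKM in starved cells and 152 ± 18.9 FPKM in fed cells (SD, n = 3 each). It had 19452, 15704 and 19488 normalized counts in starved cells, against 35290.5, 35397 and 29142 in fed cells (log2 fold change -0.87 ± 0.13, limma adjusted p = 0.000417). IRS1 had 61.1, 62.8 and 63.9 normalized counts in starved cells, against 147, 134 and 133 in fed cells (log2 fold change -1.12 ± 0.17, limma adjusted p = 0.000364). IRS2 was not called, at -0.20 ± 0.15 (limma adjusted p = 0.295). Of the insulin, PI3K, AKT and mTOR list 8 of 43 were higher (18.6%) and 10 lower (23.3%, median 0.01), near the 21.5% of all tested genes in each direction. The count higher was 5 without fed replicate 2 or 3 and 4 on the TPM scale. Among the PI3K subunits PIK3C2B fell by 0.99 and PIK3CD by 0.84 on the log2 scale (limma adjusted p 0.000119 and 0.000175). AKT1S1, which encodes the mTORC1 inhibitor PRAS40, had 2094, 2819 and 2161 normalized counts in starved cells, against 1035, 1146 and 1185 in fed cells (log2 fold change 1.06 ± 0.13, limma adjusted p = 8.49e-05). DDIT4, which encodes the mTORC1 inhibitor REDD1, had 1726, 2059 and 1763 normalized counts in starved cells, against 3294, 3458 and 3541 in fed cells (log2 fold change -0.89 ± 0.23, limma adjusted p = 0.00882), the opposite direction. MTOR was not called, at 0.19 ± 0.11 (limma adjusted p = 0.165).

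FOXO factors are held out of the nucleus by AKT when growth factors are present, and their targets are used as a sign of its loss. Among these targets 4 of 20 were higher and 4 lower (median -0.03), and 2 were lower without fed replicate 1. CCNG2 rose by 0.84 ± 0.09 and the pro-death gene BCL2L11 by 0.64 ± 0.10, while PIK3IP1, an inhibitor of PI3K, fell by 0.89 and the RB relative RBL2 by 0.73 on the log2 scale (limma adjusted p 2.70e-05, 0.000533, 0.00447 and 0.000236). CDKN1B, a FOXO target that encodes the inhibitor p27, had 542, 629 and 554 normalized counts in starved cells, against 565, 589.7 and 594 in fed cells and was not called (log2 fold change -0.02 ± 0.12, limma adjusted p = 0.898).

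Serum induces immediate early genes within minutes. Of that list 15 of the 32 tested members were higher in starved cells and 2 lower (median 0.36), and 11 to 15 were higher when 1 library was left out; 1 was lower without any 1 of the 6 libraries other than starved replicate 2. FOS had 40.1, 23.1 and 38.4 normalized counts in starved cells, against 4.50, 17.3 and 9.75 in fed cells (log2 fold change 1.72 ± 0.38, limma adjusted p = 0.00406), and every starved library was above every fed library at a level under 1 FPKM in both groups. JUNB had 385, 496 and 305 normalized counts in starved cells, against 190.0, 194 and 234 in fed cells (log2 fold change 0.91 ± 0.20, limma adjusted p = 0.00364). JUN, far more abundant, went the other way, with 4070.2, 4969 and 4119 normalized counts in starved cells, against 6015, 6352 and 6549.8 in fed cells (log2 fold change -0.53 ± 0.12, limma adjusted p = 0.00499). EGR1 had 38.1, 48.5 and 38.4 normalized counts in starved cells, against 7.21, 37.5 and 34.6 in fed cells, with fed replicate 1 far below the other fed libraries, and did not pass (log2 fold change 0.92 ± 0.46, limma adjusted p = 0.132). MYC had 1426, 1564 and 1369 normalized counts in starved cells, against 1657, 1773 and 1831 in fed cells (log2 fold change -0.27 ± 0.10, limma adjusted p = 0.0378). This call was lost when any 1 of the 6 libraries other than starved replicate 2 was left out (limma adjusted p 0.0544 to 0.135). ZFP36L2, an mRNA decay factor, rose by 0.90 ± 0.10 (limma adjusted p = 6.11e-05).

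Output and feedback genes of the ERK pathway split by member: 5 of 14 were higher and 4 lower (median 0.24), with 3 higher without any 1 of the 6 libraries other than fed replicate 3 and 2 higher on the TPM scale. The SPRED proteins inhibit RAS signalling. SPRED1 had 86.1, 79.3 and 69.7 normalized counts in starved cells, against 174, 252 and 202 in fed cells (log2 fold change -1.39 ± 0.16, limma adjusted p = 4.60e-05). SPRED2 had 107, 121 and 106 normalized counts in starved cells, against 274, 316 and 310.3 in fed cells (log2 fold change -1.42 ± 0.14, limma adjusted p = 2.00e-05). SPRED3 had 120.2, 106 and 113 normalized counts in starved cells, against 19.8, 20.2 and 23.1 in fed cells (log2 fold change 2.37 ± 0.17, limma adjusted p = 3.28e-06). SPRED3 thus moved opposite to its relatives, with no overlap between groups for any of the 3. SPRY2 did not pass, at -0.04 ± 0.14 (limma adjusted p = 0.848). DUSP6, the phosphatase that ERK induces against itself, was at most 12.5 normalized counts in any library and was not tested, and ETV5 was as scarce and not called (log2 fold change 0.37 ± 0.33, limma adjusted p = 0.395). ETV5 was 1 of 2 tested PEA3 factor genes, and the other was called lower, at -1.40. Of the 2, 0 were lower without fed replicate 3 or with a replicate block. The same held for a filter of 5 FPKM or a filter on the starved and fed libraries alone. CCND1, the cyclin D1 gene downstream of ERK, had 539, 536 and 549 normalized counts in starved cells, against 784, 823 and 785 in fed cells (log2 fold change -0.56 ± 0.08, limma adjusted p = 0.000283).

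Most replication and mitosis genes were not called. Of the 62 tested, 48 were not called, 6 were higher (9.68%) and 8 lower (12.9%, median -0.05). Both shares lay below the 21.5% of all tested genes called in each direction. When 1 library was left out 3 to 5 were higher (3 without fed replicate 2). Under quantile scaling 3 were higher and 13 lower, and on the TPM scale 3 were higher. PCNA had 4626, 4549.8 and 4926 normalized counts in starved cells, against 4949, 4789 and 4696 in fed cells (log2 fold change -0.03 ± 0.09, limma adjusted p = 0.801). MCM2 stood at -0.02 ± 0.10, MKI67 at 0.13 ± 0.20 and CCNB1 at 0.05 ± 0.09, and none of these genes was called (limma adjusted p 0.894, 0.641 and 0.703). The kinase gene NEK2 had 483, 478 and 509 normalized counts in starved cells, against 1009, 999 and 976 in fed cells (log2 fold change -1.02 ± 0.09, limma adjusted p = 1.35e-05). The licensing factor gene CDC6 rose by 0.67 ± 0.08 (limma adjusted p = 6.40e-05). Among G1 regulators 6 of 32 were higher and 8 lower (median 0.04). CDKN2D, the CDK4/6 inhibitor p19, had 455, 509 and 401 normalized counts in starved cells, against 108, 99.1 and 129 in fed cells (log2 fold change 2.01 ± 0.23, limma adjusted p = 5.03e-05). The RB relative RBL1, or p107, had 202, 175 and 244 normalized counts in starved cells, against 627, 657 and 567 in fed cells (log2 fold change -1.58 ± 0.15, limma adjusted p = 1.40e-05). Neither gene's libraries overlapped between groups. CDK6 fell by 0.69 (limma adjusted p = 0.00297), LIN52, a subunit of the DREAM complex, rose by 1.02 ± 0.09 (limma adjusted p = 1.02e-05), and CDKN1A, the p21 gene, was not called (log2 fold change 0.08 ± 0.13, limma adjusted p = 0.667).

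In the BCL2 family, which sets the threshold for mitochondrial cell death, 5 of 15 were higher and 3 lower (median 0.13), with 3 higher under a filter of 5 FPKM and 1 lower without starved replicate 3 or fed replicate 3. BAX, an effector of mitochondrial cell death, had 2153, 2574 and 1941 normalized counts in starved cells, against 972, 991 and 1185 in fed cells (log2 fold change 1.08 ± 0.22, limma adjusted p = 0.00214). The BH3-only gene BAD had 79.1, 78.2 and 98.8 normalized counts in starved cells, against 33.3, 29.8 and 45.2 in fed cells (log2 fold change 1.23 ± 0.25, limma adjusted p = 0.00246). BID fell by 0.76 on the log2 scale, and MCL1, a guardian against cell death, rose by 0.67 ± 0.08 (limma adjusted p 0.000874 and 7.46e-05).

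**Figure D4:**
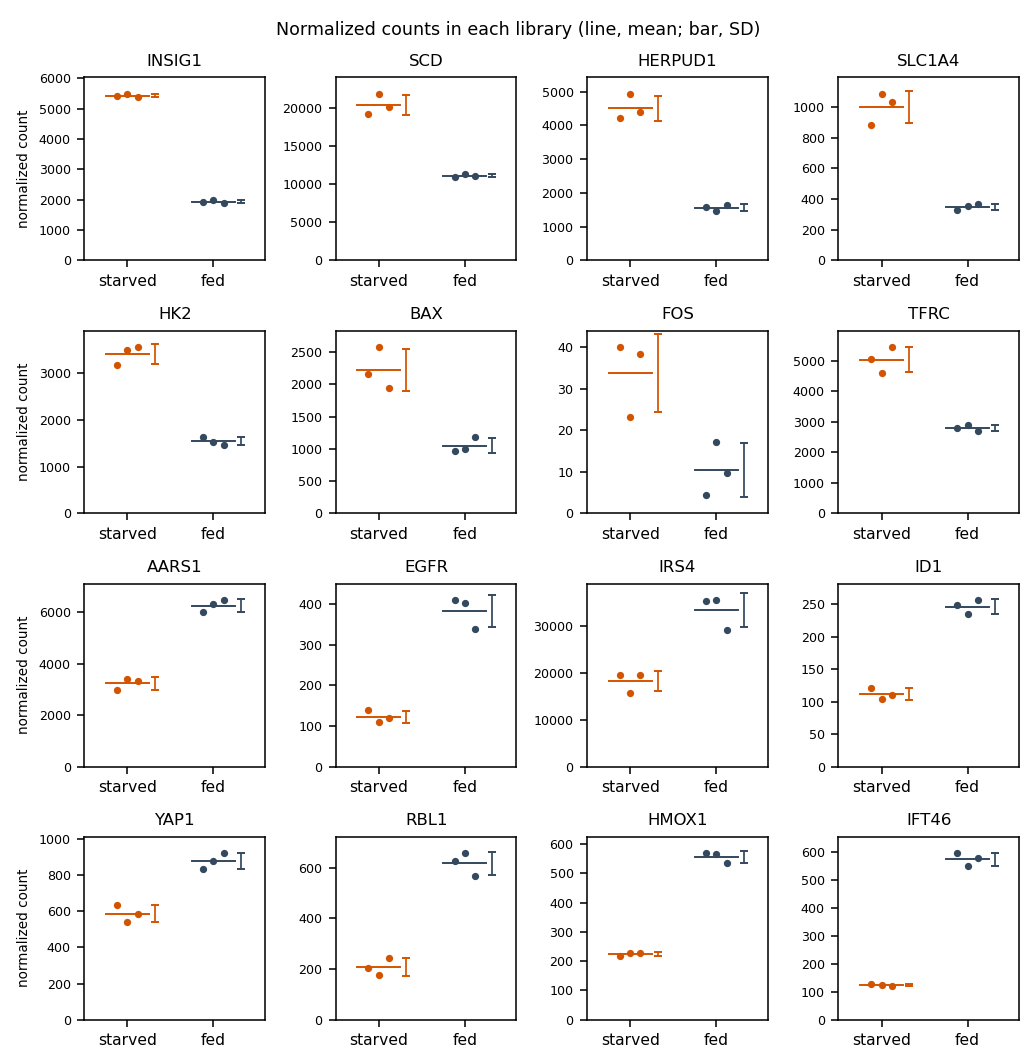
Normalized counts (vertical axis, from 0) of 16 genes in each of the 3 starved (left, orange) and 3 fed (right, dark) libraries; the line is the mean and the bar beside it the SD. In each of the 16 panels the starved and fed points do not overlap. The upper 8 genes (INSIG1 to TFRC) are higher and the lower 8 (AARS1 to IFT46) lower in starved cells. Separation of this kind is common, at 59.3% of all tested genes, and does not set these 16 apart.

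Genes of BMP and TGF-beta feedback were lower in 8 of 20 cases and higher in 3 (median -0.28). The ID proteins block differentiation factors and are direct targets of BMP signals, which serum carries. ID1 had 121, 104 and 110.4 normalized counts in starved cells, against 249, 235 and 256 in fed cells (log2 fold change -1.14 ± 0.22, limma adjusted p = 0.00164). ID2 had 1312, 1397 and 1279 normalized counts in starved cells, against 2243, 2111 and 2372 in fed cells (log2 fold change -0.75 ± 0.09, limma adjusted p = 9.17e-05). ID3 had 546, 719.6 and 575 normalized counts in starved cells, against 978, 956 and 1192 in fed cells (log2 fold change -0.77 ± 0.18, limma adjusted p = 0.00467). Every starved library was below every fed library for the 3 genes. The other of the 4 tested ID genes stood at 0.26 and was not called, but was called higher without starved replicate 3. The inhibitory SMAD7 had 133, 199 and 128 normalized counts in starved cells, against 286, 238 and 259 in fed cells (log2 fold change -0.79 ± 0.18, limma adjusted p = 0.00460), with starved replicate 2 nearest to the fed libraries. The YAP and TEAD list had the largest share of lower members among the lists: 2 of the 26 tested members were higher in starved cells and 12 lower (median -0.29), with 7 lower without starved replicate 1, and 1 higher without starved replicate 3, fed replicate 2 or fed replicate 3. YAP1, the co-activator that serum lipids switch on, had 637, 539.9 and 586 normalized counts in starved cells, against 835, 878 and 922 in fed cells (log2 fold change -0.58 ± 0.09, limma adjusted p = 0.000544). Its DNA-binding partners TEAD2 and TEAD4 fell by 1.24 and 0.95 on the log2 scale (limma adjusted p 2.69e-05 and 0.000123). Of the most used YAP targets, CCN1 and CCN2 stood at -0.03 ± 0.17 and 0.49 ± 0.20 and were not called (limma adjusted p 0.913 and 0.0723). In the SRF and actin list 4 of 28 were higher and 4 lower (median -0.05), with 2 lower without fed replicate 1 or 2. TAGLN of that list had 125, 105 and 128 normalized counts in starved cells, against 41.4, 44.2 and 35.5 in fed cells (log2 fold change 1.54 ± 0.24, limma adjusted p = 0.000396). ACTB, of the cytoskeleton, had 21911, 28027 and 23522 normalized counts in starved cells, against 23326, 25379.9 and 27061 in fed cells and was not called (log2 fold change -0.05 ± 0.13, limma adjusted p = 0.795).

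Many cells grow primary cilia when serum is withdrawn. Of the cilium list 10 of the 66 tested members were higher in starved cells (15.2%) and 15 lower (22.7%, median -0.03). Among all tested genes 21.5% were called in each direction. In intraflagellar transport, the carriage of cargo along the cilium, 1 of 24 were higher (4.17%) and 5 lower (20.8%). The BBSome and transition zone group had 1 of 22 higher and 7 lower. Genes that control cilium assembly had 6 of 13 higher and 1 lower, with 3 higher on the TPM scale. IFT46 had 128, 122 and 119.7 normalized counts in starved cells, against 595, 549 and 578 in fed cells (log2 fold change -2.21 ± 0.10, limma adjusted p = 3.28e-07). CLUAP1 had 31.0, 29.8 and 29.1 normalized counts in starved cells, against 187, 123 and 168 in fed cells (log2 fold change -2.35 ± 0.19, limma adjusted p = 5.13e-06). IFT88 had 70.1, 59.5 and 93.0 normalized counts in starved cells, against 153, 140.4 and 158 in fed cells (log2 fold change -1.03 ± 0.19, limma adjusted p = 0.00111), and all 3 genes had no overlap between groups. The kinesin gene KIF3A, which also moves other cargo, rose by 0.55 ± 0.15 (limma adjusted p = 0.0103), a call lost on the TPM scale (limma adjusted p = 0.0839) and in edgeR (adjusted p = 0.0521). GLI1, the readout of Hedgehog signals, was not called (-0.28 ± 0.20; limma adjusted p = 0.287). The count higher in the list was 5 without starved replicate 3 or fed replicate 3, 6 without starved replicate 1 or fed replicate 1, and 3 on the TPM scale. Among Notch genes POFUT1, which adds the fucose that receptors need, had 260.4, 295 and 258 normalized counts in starved cells, against 1630.2, 1606 and 1688 in fed cells (log2 fold change -2.60 ± 0.09, limma adjusted p = 5.49e-08). The receptor gene NOTCH3 fell by 0.81 on the log2 scale (limma adjusted p = 0.000242). NOTCH1 and the target HES1 were not called (limma adjusted p 0.182 and 0.269).

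In the hypoxia and glycolysis list 6 of 37 tested members were higher (16.2%) and 10 lower (27.0%), with a median of -0.02. Among all tested genes 21.5% were called in each direction. SLC2A1, the basal glucose carrier, had 1205, 1568 and 1362 normalized counts in starved cells, against 551, 645 and 674 in fed cells (log2 fold change 1.14 ± 0.12, limma adjusted p = 3.73e-05). SLC2A3, a high-affinity carrier, had 76.1, 89.3 and 90.7 normalized counts in starved cells, against 294, 226 and 238 in fed cells (log2 fold change -1.55 ± 0.14, limma adjusted p = 1.15e-05). HK2, which traps glucose as its phosphate, had 3159.8, 3489.8 and 3543 normalized counts in starved cells, against 1638, 1527 and 1467 in fed cells (log2 fold change 1.14 ± 0.08, limma adjusted p = 3.28e-06). ENO2, the neuronal enolase, fell by 0.86 on the log2 scale (limma adjusted p = 7.32e-05). All 4 genes had starved and fed libraries apart. VEGFA rose by 0.87 ± 0.08 (limma adjusted p = 1.55e-05).

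Of the iron and heme list 4 of 21 were higher and 5 lower (median 0.01), with 2 higher without fed replicate 1. TFRC, the transferrin receptor, had 5056, 4605 and 5443 normalized counts in starved cells, against 2798, 2892 and 2703 in fed cells (log2 fold change 0.84 ± 0.09, limma adjusted p = 2.46e-05). SLC40A1, the iron exporter ferroportin, was scarce, with 11.02, 5.51 and 15.1 normalized counts in starved cells, against 68.5, 74.1 and 55.9 in fed cells (log2 fold change -2.63 ± 0.35, limma adjusted p = 0.000175). HMOX1, which breaks down heme and is an NRF2 target, had 216, 227 and 228 normalized counts in starved cells, against 569, 567 and 535 in fed cells (log2 fold change -1.31 ± 0.10, limma adjusted p = 3.28e-06). CPOX, of heme synthesis, had 363, 417 and 395 normalized counts in starved cells, against 1009, 1032 and 950.4 in fed cells (log2 fold change -1.35 ± 0.10, limma adjusted p = 2.60e-06). All 4 had starved and fed libraries apart. FTH1, the ferritin heavy chain, had 1326, 1666 and 488 normalized counts in starved cells, against 918, 795 and 1459 in fed cells, overlapped widely and was not called (log2 fold change 0.01 ± 0.44, limma adjusted p = 0.993). The NRF2 target NQO1 fell by 0.997 on the log2 scale, while TXNRD1, the thioredoxin reductase, rose by 0.44 ± 0.09 (limma adjusted p 0.000697 and 0.00224). Of 32 glutathione, thioredoxin and NRF2 genes 6 were higher and 5 lower (median -0.02), with 3 higher without fed replicate 1 and 8 lower without starved replicate 2.

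Serum also carries retinol. The list of targets of serum-borne hormones, vitamins and xenobiotics had 4 of 19 members higher and 6 lower, with 3 lower under a filter of 5 FPKM. In its retinoid group 1 of 10 were higher and 4 lower (median -0.36). The glucocorticoid group had 2 of 6 higher and 1 lower, with 1 higher without any 1 library and 2 lower on the TPM scale. The aryl hydrocarbon receptor group had 1 of 3 higher and 1 lower. CYP26A1, the enzyme that clears retinoic acid and is its target, had 13.0, 14.3 and 12.8 normalized counts in starved cells, against 45.9, 59.6 and 32.8 in fed cells (log2 fold change -1.67 ± 0.30, limma adjusted p = 0.00109). CRABP2, which carries retinoic acid to its receptor, had 655, 807 and 679 normalized counts in starved cells, against 1225, 1299 and 1458 in fed cells (log2 fold change -0.90 ± 0.11, limma adjusted p = 6.49e-05). Its libraries did not overlap between groups. Of the clock list 6 of 16 were higher and 4 lower (median 0.15), with 2 lower without any 1 of the 6 libraries other than starved replicate 2. PER1, a clock gene that serum and glucocorticoids induce, rose by 0.59 ± 0.11, whereas the clock repressor gene NR1D1 fell by 0.91 on the log2 scale (limma adjusted p 0.00173 and 0.00260). Among Krüppel-like factors KLF15, a fasting factor of liver and muscle, had 626, 733 and 757 normalized counts in starved cells, against 223, 194 and 238 in fed cells (log2 fold change 1.69 ± 0.13, limma adjusted p = 3.74e-06). KLF11 had 69.1, 76.0 and 58.1 normalized counts in starved cells, against 268, 292 and 272 in fed cells (log2 fold change -2.03 ± 0.13, limma adjusted p = 1.39e-06). These were the only 2 called of the 12 members tested.

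The machinery of protein synthesis and breakdown changed unevenly. Ribosome biogenesis and RNA polymerase I genes had 34 of 59 members higher and 4 lower (median 0.32), with 23 to 32 higher when 1 library was left out and 18 on the TPM scale. UBTF, which opens ribosomal DNA for polymerase I, fell, with 974, 1304 and 1139 normalized counts in starved cells, against 2382, 2523 and 2505 in fed cells (log2 fold change -1.13 ± 0.11, limma adjusted p = 1.61e-05). WDR75, a processing factor of the small subunit, had 445, 363 and 417 normalized counts in starved cells, against 1573, 1434 and 1450.4 in fed cells (log2 fold change -1.87 ± 0.10, limma adjusted p = 6.24e-07). The polymerase I initiation factor gene TAF1A rose by 1.02 ± 0.17 (limma adjusted p = 0.000551). Of 78 cytosolic ribosomal protein genes, whose reads may be shared with pseudogenes, 2 were higher and 0 lower (median 0.10), and 0 were higher without starved replicate 1, fed replicate 1 or fed replicate 2, with 1 lower without starved replicate 1 or 2. Nuclear genes of the respiratory chain had 5 of 69 members higher and 3 lower (median 0.02), with 2 higher without fed replicate 2, 3 higher without starved replicate 2, fed replicate 1 or fed replicate 3, and 1 lower without starved replicate 1, starved replicate 3, fed replicate 1 or fed replicate 3. Of the proteasome list 11 of the 34 tested members were higher and 2 lower (median 0.16), but 4 were higher without fed replicate 2, 5 without fed replicate 1, 6 without starved replicate 2, 7 without starved replicate 1 and 2 on the TPM scale. In autophagy and lysosome genes 22 of 64 were higher and 8 lower (median 0.17). The lysosome and TFEB family group had 13 of 31 members higher and 3 lower, with log2 fold changes down to -1.13. Its hydrolase genes HEXA and NEU1 rose by 1.26 ± 0.19 and 1.004 ± 0.12 (limma adjusted p 0.000329 and 9.67e-05). AMBRA1, which starts autophagosome formation, had 276, 356 and 345 normalized counts in starved cells, against 803, 822 and 832 in fed cells (log2 fold change -1.34 ± 0.11, limma adjusted p = 5.49e-06). MAP1LC3B, of the autophagosome membrane, rose by 0.46 ± 0.08, and the cargo receptor gene SQSTM1 was not called (limma adjusted p 0.000626 and 0.440).

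Among the lists described above for which no such value has been given, the TPM scale moved the count by over 1.5 times in these cases. On it, 3 fatty acid oxidation genes, 2 glutathione and NRF2 genes, 2 respiratory chain genes, 0 ribosomal protein genes and 0 YAP and TEAD genes were higher in starved cells, and 7 SRF and actin genes and 1 ribosomal protein gene were lower. A filter of 5 FPKM, which tests fewer members, also moved counts. Under it 5 cilium genes, 2 fatty acid oxidation genes, 2 SRF and actin genes, 2 clock genes and 2 respiratory chain genes were higher, with no retinoid gene higher. It left 7 YAP and TEAD genes, 6 hypoxia and glycolysis genes, 6 cilium genes (3 of intraflagellar transport), 5 ID and TGF-beta feedback genes, 5 autophagy and lysosome genes, 3 fatty acid genes, 2 ERK output genes and 1 member each of the sterol, SRF, retinoid, clock and proteasome lists lower. With no filter 7 ERK output genes, 7 clock genes and 3 Krüppel-like factor genes were lower. Under quantile scaling 3 proteasome genes and 2 iron and heme genes were higher, and 2 retinoid genes, 1 clock gene and 1 proteasome gene were lower. With the knockdown libraries left out of the fit 5 sterol genes were lower and 4 ribosomal protein genes higher, and in edgeR 0 ribosomal protein genes were higher and 1 lower.

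**Figure D5:**
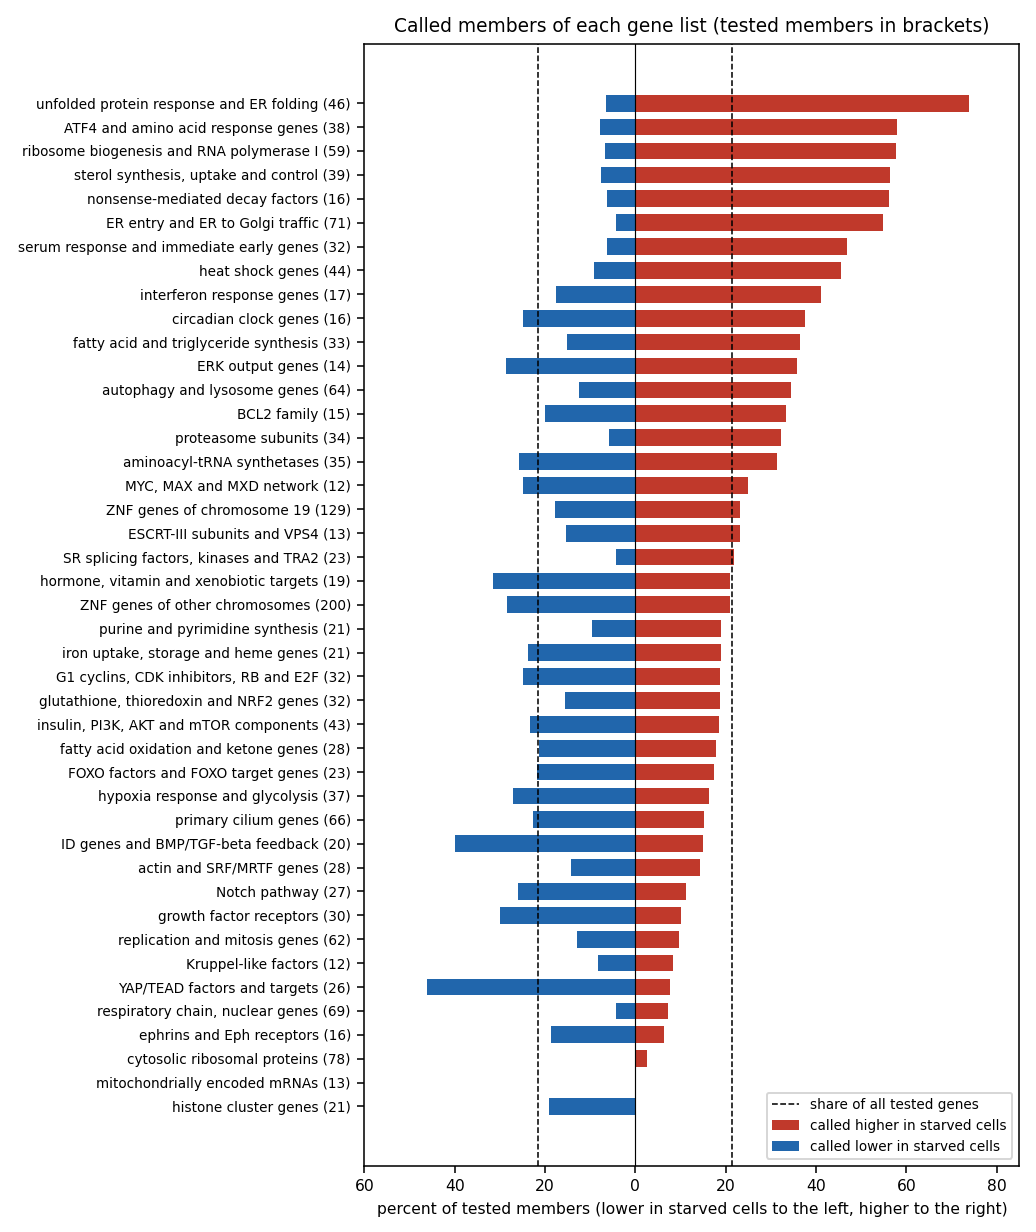
Percent of tested members called higher (red, to the right) and lower (blue, to the left) in starved cells for the gene lists with 10 or more tested members (1 such list is not shown), the number tested in brackets; dashed lines mark the 21.5% of all tested genes called in each direction. ER folding, ATF4, ribosome biogenesis, sterol, nonsense-mediated decay and ER traffic genes have the longest red bars, and YAP/TEAD and ID and TGF-beta feedback genes the longest blue ones.

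Single genes with large changes that belong to none of these lists were found on both sides. GPR75, an orphan receptor, had 205, 217 and 221 normalized counts in starved cells, against 46.8, 63.5 and 46.1 in fed cells (log2 fold change 2.03 ± 0.28, limma adjusted p = 0.000218). The endosomal chloride and proton exchanger gene CLCN6 had 1325, 1167 and 1368 normalized counts in starved cells, against 355, 382 and 340.4 in fed cells (log2 fold change 1.84 ± 0.13, limma adjusted p = 2.37e-06). The small GTPase gene RAB39A had 477, 391 and 441 normalized counts in starved cells, against 118, 120.2 and 109 in fed cells (log2 fold change 1.90 ± 0.13, limma adjusted p = 1.65e-06). USF3 rose by 1.91 ± 0.19 and C11orf54 by 1.95 ± 0.13 on the log2 scale (limma adjusted p 2.23e-05 and 1.65e-06). Among falls, MRC2, an endocytic collagen receptor, had 149, 123 and 128 normalized counts in starved cells, against 705, 794 and 732 in fed cells (log2 fold change -2.47 ± 0.13, limma adjusted p = 3.86e-07). COQ3, a methyltransferase of ubiquinone synthesis, had 84.1, 107 and 91.8 normalized counts in starved cells, against 467, 477 and 503 in fed cells (log2 fold change -2.35 ± 0.14, limma adjusted p = 8.04e-07). ASB13, of a ubiquitin ligase, had 99.2, 119 and 115 normalized counts in starved cells, against 586, 615 and 609 in fed cells (log2 fold change -2.43 ± 0.11, limma adjusted p = 2.99e-07). By the rule that named them, none of these genes had overlapping libraries. The alpha-2C adrenergic receptor gene ADRA2C, the zinc finger gene ZNF22 and the transporter gene MFSD3 fell, with log2 fold changes of -2.18 ± 0.24, -2.36 ± 0.15 and -2.32 ± 0.30 (limma adjusted p 4.05e-05, 1.28e-06 and 0.000123).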

How the data were processed

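RNA from 293T cells was sequenced from mRNA libraries, per the labels. The authors deposited 1 table for 9 libraries. Its name speaks of FPKM, but every column is whole multiples of 1 step whatever the gene's length (100% of values within 1e-08), so the deposited values are a signal, reads per gene divided by 1 factor per library, and FPKM were computed here from them and the deposited gene lengths. No aligner, counter or annotation is given in the sources used here. The submitters' processing notes name the mouse build mm10, while 19849 of 19966 gene IDs are in the human GENCODE 29 annotation and 19830 overlap their GRCh38 position. No strand setting is given, so overlapping and antisense genes cannot be told apart. The other 6 samples of the series were not analysed here, and 0 columns belong to other samples.

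Genes with at least 1 FPKM in at least 3 of the 9 libraries were tested with limma 3.58.1 (trend) in R 4.3.3 on log2(normalized count + 1), with 1 mean per group over all 9 libraries, and p-values were adjusted by the Benjamini-Hochberg method over 11133 genes. Calls are adjusted p under 0.05. The step gives 11775367 to 15231651 reads in genes per library. The members and gene lists were chosen with earlier results of these data known, and no list was tested as a set. Genes were named by rule: the 15 largest rises and 15 largest falls among called genes with at least 5 FPKM and no overlap, up to 6 called members per list with the largest change, preset key members, the 10 most abundant genes in fed cells, and cell type markers. On simulated data (11133 genes, 5 runs) the test recovered 43.6% of 1.25-fold, 94% of 1.5-fold and 99.2% of 2-fold changes, with 4.43% false calls. The simulation changed 200 genes and gave every gene the same spread, the median of the fed libraries. In the real data the spread differed between genes and 43.1% of genes were called, so these rates may not carry over. Alternatives were other pseudocounts, filters, scalings and limma settings, a replicate block, leaving out each library, and edgeR 4.0.16 on the recovered reads without starved replicate 1, whose factor lay too near 1 to settle. Same-numbered starved and fed libraries did not consistently deviate together, so the numbers were not used as pairs. Promoters came from RefSeq (GRCh38.p14, first listed start of each gene). Values of a few single genes are not reported here, though list counts include them.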

Additional observations from a re-analysis of the deposited data

How the results depend on the processing

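The number of called genes was 4795. It was 3115 with a filter of 5 FPKM (1290 lower), under which fewer genes were tested, and 942 when a change of 2-fold or more was also required (282 higher and 660 lower). On the TPM scale 1402 genes were called higher. The median log2 fold change over all tested genes was -0.07 on that scale and 0.03 on the deposited scale. Normalized counts summed to 13748631 to 14600520 in starved libraries and 13031464 to 13480261 in fed libraries, sums that the TPM scale makes equal. The part of this in the lower count was not tested. Leaving out 1 library gave 3687 to 4660 called genes, 1772 to 2311 higher and 1915 to 2349 lower. The other scalings, pseudocounts, limma settings and edgeR (4906) stayed within 1.5 times the count. Deviations of same-numbered starved and fed libraries correlated at 0.26, -0.23 and -0.46 for numbers 1, 2 and 3. The numbers thus show no consistent pairing. The largest correlation across groups was 0.54, between starved replicate 2 and fed replicate 3, and its cause was not tested. With the knockdown libraries left out of the fit 5664 genes were called. A replicate block, fitted on the same 6 libraries, gave 5170 calls (2614 higher and 2556 lower). With this block ERK output had 3 members higher, sterol 5 lower and proteasome 1 lower. A level filter on the starved and fed libraries alone, chosen after seeing the data, gave 4709 calls. Of 176 tested genes named in the text, 148 were called, 143 of them in every setting. The other 5 lost the call in at least 1 setting, 2 of them when a library was left out, and 0 reversed. The naming rule favours called genes with large changes, so these counts do not describe called genes at large. Depth limits scarce genes: in the lowest of 4 equal bins by count the median was 122 normalized counts.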

Other observations

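Factors of nonsense-mediated mRNA decay, which removes messages with early stop codons, had 9 of 16 members higher and 1 lower in starved cells (median 0.37), with 6 to 9 higher when 1 library was left out. UPF2, a core factor that links UPF1 to the exon junction complex, had 2133, 1715 and 2104 normalized counts in starved cells, against 1097, 1067 and 897 in fed cells (log2 fold change 0.96 ± 0.17, limma adjusted p = 0.000961). Its libraries did not overlap between groups. UPF1, the helicase at the centre of the pathway, had 2966, 3525 and 3075 normalized counts in starved cells, against 2725, 2959.9 and 2946 in fed cells and was not called (log2 fold change 0.15 ± 0.10, limma adjusted p = 0.240); it was picked for mention after its value was seen. SMG8, which binds the kinase SMG1, was the member called lower, at -0.67 ± 0.09, while SMG1 rose by 0.72 ± 0.16 on the log2 scale (limma adjusted p 0.000229 and 0.00438). Interferon response genes had 7 of 17 members higher and 3 lower (median 0.25), with 4 higher on the TPM scale or with a filter of 5 FPKM. IFIH1, which encodes the double-stranded RNA sensor MDA5, rose by 1.01 ± 0.22, and IFI35 stood at -1.30 ± 0.35 (limma adjusted p 0.00329 and 0.0110).

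Of 129 zinc finger genes tested on chromosome 19, 30 were higher and 23 lower in starved cells, and of 200 elsewhere 42 were higher and 57 lower. Of 21 tested histone genes 0 were higher and 4 lower. The difference between these groups was not tested.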
